A study of Mus musculus with 6 samples.

Results

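The replication-dependent histone genes are the clustered genes that supply core and linker histones to newly made DNA. They were taken as every row of the deposited gene table whose symbol begins with Hist1h, Hist2h, Hist3h or Hist4h. This gave 65 of the 18341 listed genes, chosen by name alone. The family was picked for description with the BAFF comparison's results known, so its fall is described here and is no independent test. Of the 65, 52 belong to the Hist1 cluster, 9 to Hist2, 3 to Hist3 and 1 to Hist4, which lie on mouse chromosomes 13, 3, 11 and 6 in GENCODE M21 (GRCm38). By product, 5 encode linker histone H1, 18 belong to H2a, 18 to H2b, 11 to H3 and 13 to H4. Hist1h2aj and Hist3h2bb-ps are annotated as pseudogenes, and the other 63 as protein-coding. The germ-line genes Hist1h1t, Hist1h2aa and Hist1h2ba were not analysed here.

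The samples are bulk RNA of monocytes. They were sorted from tumours grown under the skin of C57BL/6 mice for 13 days; the tumour cells are taken to be the B16.F10 mouse melanoma line, which the labels give as the source. In the BAFF tumour group (3 libraries) the injected cells overexpressed BAFF, B cell activating factor. In the control tumour group (3 libraries) they were control cells. The labels give neither the vector or promoter behind the overexpression, nor whether the line was 1 clone, nor whether each library had its own animals, so p-values measure only the spread between these samples. Against that source label, the summed CPM (reads scaled to a fixed library total) of 10 monocyte markers was 5884 to 12116, against 85.9 to 742 CPM for 10 melanoma markers.

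Chromatin is built by wrapping DNA around pairs of H2A, H2B, H3 and H4, with H1 bound where DNA enters and leaves. Replication-dependent genes are transcribed in S phase, and their transcripts are the only known cellular messenger RNAs of animals that normally end without a poly(A) tail. They end instead at a short stem-loop bound by the protein SLBP, while some of these genes also give polyadenylated transcripts, known from cells that have stopped dividing. Replication-independent variants such as H3f3a are made from ordinary polyadenylated messages throughout the cell cycle. Monocytes divide little once they have left the bone marrow.

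The 16-base stem-loop was found in the annotated GENCODE M21 transcripts of 44 of the 65 genes. In 23 of them the annotated transcript ends within 100 bases after the stem-loop, in 21 it runs on for more than 100 bases, and the models of the remaining 21 genes hold no such sequence. A search that finds none says only that these letters are absent from that model. The commonest form served 25 genes of H1, H2a, H2b and H3, and H4 genes had forms of their own. The sequences below are written 5′ to 3′ as DNA, with the stem-loop in capitals. The first 4 genes showed some of the steepest falls with BAFF and have short models. The last 4 did not pass the test on the deposited scale and have models that run on. The printed genes differ in both outcome and model length, so they cannot show whether the 2 go together. On that scale 6 of 19 tested genes with long models, such as Hist1h3d, were called lower. Of 20 with short models 7, such as Hist2h2ac, did not pass. After median-of-ratios size factors 14 of the 19 were lower, Hist3h2a among them, and 16 of the 20.
Hist1h2bb: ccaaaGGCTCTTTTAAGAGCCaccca
Hist1h3b: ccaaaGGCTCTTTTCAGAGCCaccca
Hist1h2bm: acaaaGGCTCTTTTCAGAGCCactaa
Hist1h4f: tcaaaGGCCCTTTTCAGGGCCaccca
Hist1h1c: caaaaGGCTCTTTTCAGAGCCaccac
Hist3h2a: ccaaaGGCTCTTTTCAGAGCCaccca
Hist1h4i: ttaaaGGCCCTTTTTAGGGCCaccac
Hist4h4: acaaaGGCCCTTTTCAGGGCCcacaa
The stem-loops of Hist1h3b and Hist3h2a are the same, flanks included. What differed in the annotation was the length beyond it, 51 bases for Hist1h3b and 1643 bases for Hist3h2a.

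Promoter sequences of 58 genes were matched through their gene identifiers to RefSeq (GRCm38.p6), in windows of 300 bases that start 250 before the transcription start. In all 59 windows were searched on both strands. CCAAT was present in all 5 H1, 17 H2a, 16 H2b and 9 H3 windows and in 3 of 12 H4 windows, against 37.4% of all 32851 promoters. GGTCCG was present in 11 of 12 H4 windows (8.25% of all promoters), AAACACA in 4 of 5 H1 windows (7.18%) and the octamer ATTTGCAT in 6 of 17 H2a and 6 of 16 H2b windows (1.74%). TATAAA stood in 33 of the 59 (13.6% of all). The octamer contains no other searched motif. The 180 bases before the start are printed for 3 genes that fell with BAFF and 2 that did not pass, with all searched motifs of either strand in capitals.
Hist1h2bb, chr13:23746554-23746733, plus strand: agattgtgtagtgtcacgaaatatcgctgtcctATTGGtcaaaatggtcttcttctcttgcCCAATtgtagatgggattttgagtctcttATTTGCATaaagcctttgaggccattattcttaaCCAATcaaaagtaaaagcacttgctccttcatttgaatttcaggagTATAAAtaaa
Hist1h3b, chr13:23752165-23752344, plus strand: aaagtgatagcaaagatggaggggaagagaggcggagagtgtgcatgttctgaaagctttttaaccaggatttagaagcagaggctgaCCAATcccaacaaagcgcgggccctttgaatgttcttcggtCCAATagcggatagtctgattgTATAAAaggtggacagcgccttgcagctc
Hist1h4f, chr13:23551669-23551848, minus strand: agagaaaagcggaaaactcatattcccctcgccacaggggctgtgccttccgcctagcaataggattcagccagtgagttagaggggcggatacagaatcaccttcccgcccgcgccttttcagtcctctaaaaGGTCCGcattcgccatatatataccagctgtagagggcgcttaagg
Hist1h1c, chr13:23738627-23738806, plus strand: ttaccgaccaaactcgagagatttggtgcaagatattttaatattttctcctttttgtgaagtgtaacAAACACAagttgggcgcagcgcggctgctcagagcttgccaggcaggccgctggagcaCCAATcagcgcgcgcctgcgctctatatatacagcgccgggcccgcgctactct
Hist4h4, chr6:136804432-136804611, minus strand: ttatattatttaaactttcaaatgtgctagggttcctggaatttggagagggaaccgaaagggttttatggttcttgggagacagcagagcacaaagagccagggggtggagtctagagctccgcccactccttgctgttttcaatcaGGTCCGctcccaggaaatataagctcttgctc
Hist1h4f and Hist4h4 both carry GGTCCG and neither has CCAAT. In these 180 bases CCAAT was present in 22 of 27 windows of genes called lower and in 19 of 22 of genes that did not pass.

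Depth and the make-up of the libraries bear on every value below. From the step between low values, 1 CPM stood for 4.72 reads in control tumour 3, 7.12 in control tumour 2 and 9.65 to 27.6 elsewhere, so 3 reads, taken as the floor, corresponded to 0.109 to 0.635 CPM (counting error only). The listed genes held 39.8% of the CPM total in control tumour 3 and 50.2% in control tumour 2, against 61.1% to 66.1% elsewhere. CT010467.1, annotated as ribosomal RNA, took 299, 27017 and 43052 CPM in the controls and 693 to 5880 CPM with BAFF. Values are therefore given on the deposited scale and again after median-of-ratios size factors (RLE), computed on the tested genes. How fully the library kit takes up RNA without a poly(A) tail was not tested. Histone CPM are thus levels of reads in these libraries and need not follow the levels of stem-loop messages in the cells.

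Summed over the family, replication-dependent histone transcripts were less abundant in the libraries from BAFF tumours. The 65 genes summed to 290, 280 and 220 CPM in BAFF tumours 1, 2 and 3 and to 614, 543 and 433 CPM in control tumours 1, 2 and 3. The lowest control sum thus lay above the highest BAFF sum. The means were 264 ± 37.8 and 530.1 ± 91.0 CPM (SD, n = 3 each), a ratio of 2.01, or 2.39 after RLE. As a share of the CPM of all listed genes, the members took 0.0361% to 0.0464% in BAFF tumour libraries and 0.0937% to 0.109% in controls. On that measure control tumour 3 was the highest, although its deposited CPM was the lowest of the 3 controls for 40 of the 53 tested members. These sums rest on 2047 to 16780 estimated reads per library. In bulk samples, fewer cells with these transcripts and fewer transcripts per cell cannot be told apart.

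**Figure D1:**
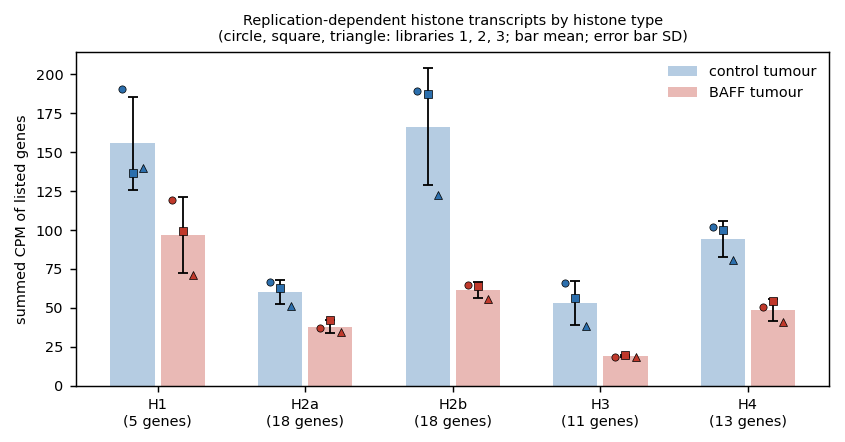
Summed CPM of the listed histone genes of each type (horizontal axis: histone type with its number of genes; vertical axis: CPM). Bars are means, error bars SD over 3 libraries and points single libraries; the BAFF tumour points lie below all control points in each of the 5 types.

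Of the 65 genes, 53 reached the mean of 1 CPM over all libraries that was required for testing. A gene can reach it through 1 group, and 8 of the 53 averaged under 1 CPM in BAFF tumour libraries and none in controls. Of these 8, 4 are among the genes called lower below: Hist1h2bl, Hist1h3g, Hist1h4j and Hist2h3b. Of the 45 at or above 1 CPM in BAFF tumour libraries, 25 were called lower. In limma-trend, with p-values adjusted over all 12824 tested genes, 29 of the 53 were lower in BAFF tumour libraries and 0 were higher (adjusted p under 0.05), where 3.5% of all tested genes were called lower and 1.81% higher. At an unadjusted p under 0.05, 41 were lower and 0 higher, against 2053 of the 12824 genes in both directions together. After RLE 42 were lower, the 29 among them, and 0 higher, where 9.91% of all tested genes were called lower and 7.18% higher. The median log2 fold change over the 53 was -1.01 on the log2(CPM + 1) scale and -1.17 after RLE, against medians of 0.23 and 0.01 over all tested genes. On the deposited scale the groups did not overlap for 39 of the 53, all lower with BAFF, against 6.6% of all tested genes. Counted over all 65 genes without regard to level, 42 were lower without overlap and 63 had a lower mean with BAFF, the exceptions being Hist1h4m and Hist4h4. Of those 42 without overlap, 3 were too scarce to test. The matching shares over all listed genes were not counted, so neither count shows whether the members differ from other genes. With no filter on level, 30 of the 65 were called lower, against 623 of all 18341 genes. The number called depended on the libraries. It was 14, 13 and 9 without BAFF tumour 1, 2 or 3, and 33, 17 and 39 without control tumour 1, 2 or 3. In the same fits after RLE it was 34 to 42. Over all tested genes these fits in that order called 225, 185, 131, 534, 268 and 922 lower, and 833 to 1172 after RLE. Without control tumour 1, 4615 genes were called higher on the deposited scale, against 232 with all libraries. The 8 that passed in all 6 of the deposited-scale fits were Hist1h2bb, Hist1h2bf, Hist1h2bm, Hist1h2bn, Hist1h3b, Hist1h3c, Hist1h4f and Hist2h3b.

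**Figure D2:**
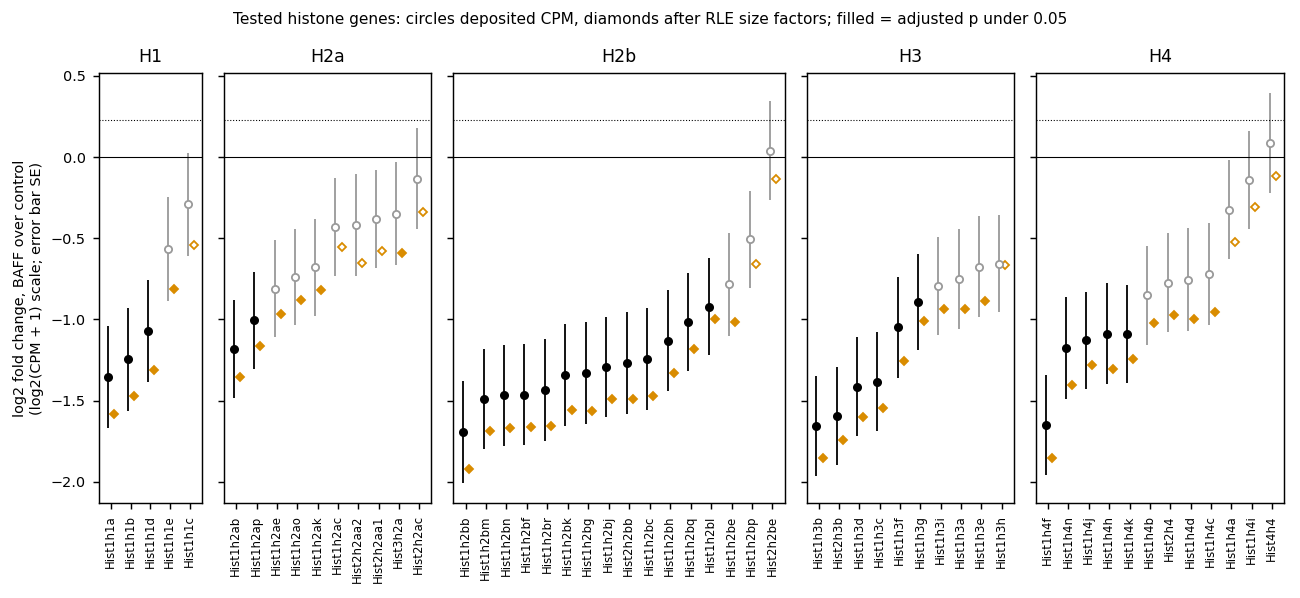
Log2 fold change, BAFF over control, of the 53 tested genes by histone type, on the log2(CPM + 1) scale. Circles with SE bars are deposited values and diamonds values after RLE; filled symbols passed at an adjusted p under 0.05, and the dotted line is the median of all tested genes (0.23). H2b has the most filled circles, 13 of 16, and H2a the fewest for its number, 2 of 10. Most H2a genes were scarce, and there the added 1 CPM shrinks log2 fold changes.

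The linker histone genes split by gene. Hist1h1a, Hist1h1b and Hist1h1d fell, and Hist1h1e and Hist1h1c, the most abundant members by CPM, did not pass. Hist1h1a stood at 6.32, 7.14 and 5.33 CPM in BAFF tumours 1 to 3 and at 24.6, 17.3 and 12.5 CPM in control tumours 1 to 3 (log2 fold change -1.35 ± 0.31 SE, limma adjusted p = 0.00125). All 3 BAFF values lay below the lowest control. Hist1h1b fell from 16.8 ± 4.1 to 6.40 ± 0.72 CPM (log2 -1.25) and Hist1h1d from 27.6 ± 4.8 to 12.8 ± 3.7 CPM (-1.07). Hist1h1e stood at 32.03, 28.6 and 21.3 CPM with BAFF and 47.7, 37.1 and 37.1 CPM in controls. Its groups did not overlap, but it passed only after RLE (limma log2 -0.57, adjusted p = 0.374; -0.81 and 0.00575 after RLE). Hist1h1c stood at 57.1, 46.2 and 28.6 CPM against 64.0, 44.0 and 50.1 CPM. Its groups overlapped and it passed on neither scale (log2 -0.29 ± 0.32, adjusted p = 0.659, and -0.54, adjusted p = 0.117 after RLE). Summed over the 5 genes, H1 transcripts were 1.61 times as abundant in controls.

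Most H2b genes fell. Of 16 tested, 13 fell and 0 rose, the median log2 fold change was -1.28 (-1.49 after RLE), and their sum was 61.5 ± 5.2 CPM with BAFF and 166 ± 37.8 CPM in controls. Hist1h2bb had the lowest log2 fold change of all members: 4.78, 5.34 and 5.57 CPM in BAFF tumours against 20.8, 22.2 and 15.1 CPM in controls (log2 -1.69 ± 0.31; limma adjusted p = 2.00e-05). Its highest BAFF library lay well under its lowest control library. Hist1h2bm (log2 -1.49), Hist1h2bn (-1.47), Hist1h2bf (-1.46), Hist1h2br (-1.43), Hist1h2bk (-1.34), Hist1h2bg (-1.33) and Hist1h2bj (-1.29) followed, all without overlap. Hist2h2bb (-1.27), Hist1h2bc (-1.24), Hist1h2bh (-1.13), Hist1h2bq (-1.01) and Hist1h2bl (-0.92) completed the 13. Of these Hist1h2bl overlapped between groups, since it stood at 3.33 and 3.01 CPM in control tumours 1 and 2 and 0.579 CPM in control tumour 3. Hist1h2be, at 8.95 ± 2.2 and 16.2 ± 4.1 CPM, passed only after RLE (log2 -0.78 on the deposited scale, limma adjusted p = 0.145; 0.00226 after RLE). Its model and that of Hist1h1e overlap each other, so the values of both are uncertain. Hist1h2bp passed on neither scale (log2 -0.51).
Hist2h2be was the exception among the H2b genes. It stood at 4.15, 3.15 and 2.57 CPM with BAFF and 4.90, 3.09 and 1.91 CPM in controls, and the groups overlapped fully (log2 0.04 ± 0.31, limma adjusted p = 0.955; -0.13 after RLE).

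H2a genes were scarce and fewer passed. Only 10 of 18 reached the level for testing, of which 2 fell, 6 were lower after RLE and 0 rose on either scale. Hist1h2ab fell from 4.496 ± 1.51 to 1.37 ± 0.21 CPM (log2 -1.18) and Hist1h2ap from 2.98 ± 0.76 to 1.01 ± 0.58 CPM (-1.01). At such levels the pseudocount of 1 CPM makes log2 fold changes smaller than the ratios. Hist1h2ao, Hist1h2ae and Hist1h2ak, named after their values were seen, had control to BAFF ratios of 2.97, 2.51 and 2.45 without overlap. Their log2 fold changes were -0.74, -0.81 and -0.68, and they passed only after RLE. They kept that call in 0, 5 and 2 of the 6 RLE fits that left out 1 library. Hist3h2a, the most abundant H2a gene, stood at 12.5, 17.3 and 13.9 CPM with BAFF and 21.5, 21.1 and 14.4 CPM in controls. Control tumour 3 lay within the BAFF range, and the gene passed only after RLE (log2 -0.35, limma adjusted p = 0.597; -0.59, adjusted p = 0.0173 after RLE). It kept that call in 4 of the 6 RLE fits that left out 1 library. Hist2h2aa2 (8.96 ± 2.8 and 12.04 ± 2.04 CPM) and Hist2h2aa1 (2.03 ± 0.33 and 3.00 ± 0.94 CPM) did not pass, and as near-identical copies their separate values are uncertain. Hist2h2ac did not pass either (log2 -0.13). In GENCODE M21 the models of all 18 H2a members overlap another annotated gene, as do 2 of 18 H2b, 1 of 5 H1, 1 of 11 H3 and 1 of 13 H4 models. The library kit does not mark strand, and how such reads were counted is not known here, so the part of these overlaps in the low H2a levels was not tested.

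H3 genes fell in 6 of 10 tested cases, and in 9 after RLE. Summed over 11 genes they stood at 18.7, 19.7 and 18.5 CPM with BAFF and 66.0, 56.1 and 38.1 CPM in controls, 2.82 times as much in controls and 3.29 after RLE. The BAFF libraries were close to each other, and the 3 controls spread widely above them. Hist1h3b stood at 1.51, 2.13 and 2.61 CPM against 10.8, 9.54 and 6.15 CPM (log2 -1.66 ± 0.31; limma adjusted p = 2.15e-05). Hist2h3b stood at 0.544, 0.537 and 0.505 CPM against 3.68, 3.82 and 3.35 CPM. It had, at 6.84, the highest ratio of control to BAFF means among the tested members (log2 -1.59 ± 0.30, adjusted p = 2.66e-05). Its BAFF mean is under 1 CPM, where the pseudocount of 1 makes the log2 fold change smaller than the ratio. Hist1h3d (-1.41), Hist1h3c (-1.38), Hist1h3f (-1.05) and Hist1h3g (-0.89) also fell. Hist1h3g stood just inside the threshold (limma adjusted p = 0.0492) and passed in 1 of the 6 fits that left out 1 library. Its 0.184 CPM in BAFF tumour 1 is under the floor of that library, 0.311 CPM. Hist1h3e, the most abundant H3 gene with Hist1h3f, passed only after RLE (-0.68; -0.89 after RLE). Hist1h3h was at 2.38 and 3.64 CPM in control tumours 1 and 2 but at 0.00112 CPM in control tumour 3, which is far below the worth of 1 read.

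H4 genes fell in 5 of 12 tested cases and in 9 after RLE. Hist1h4f stood at 3.27, 2.60 and 1.71 CPM with BAFF and 11.2, 10.5 and 8.14 CPM in controls (log2 -1.65 ± 0.31; limma adjusted p = 2.62e-05), with no overlap. Hist1h4n (-1.17), Hist1h4j (-1.13), Hist1h4h (-1.09) and Hist1h4k (-1.09) fell as well. Hist1h4d, the most abundant H4 gene, stood at 13.1, 13.1 and 11.6 CPM against 23.6, 26.4 and 16.9 CPM. Its groups did not overlap and it passed only after RLE (log2 -0.76, adjusted p = 0.171; -0.99, adjusted p = 0.00119 after RLE). Hist1h4c (8.38 ± 2.3 and 14.3 ± 2.3 CPM) and Hist2h4 (2.48 ± 0.11 and 4.95 ± 0.43 CPM) behaved likewise, without overlap and passing only after RLE. Hist1h4a, Hist1h4i and Hist4h4 passed on neither scale. Hist4h4, the single gene of its cluster, stood at 4.25, 7.03 and 4.05 CPM with BAFF and 6.04, 5.06 and 3.18 CPM in controls (log2 0.09 ± 0.31, limma adjusted p = 0.901; -0.12 after RLE).

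**Figure D3:**
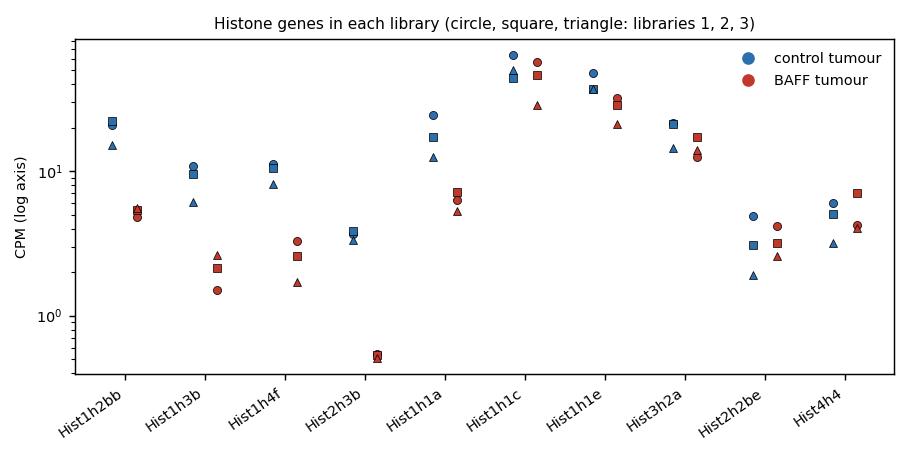
CPM of 10 histone genes in each library, on a log axis (circle, square and triangle are libraries 1, 2 and 3 of a group). For Hist1h2bb, Hist1h3b, Hist1h4f, Hist2h3b and Hist1h1a the groups stand apart, while for Hist1h1c, Hist3h2a, Hist2h2be and Hist4h4 they overlap.

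Levels between genes were compared per kilobase of coding length (309 bases for H4 to 669 for the longest H1). Among tested genes the control mean ran from 3.91 to 82.8 CPM per coding kilobase, with a median of 16.4, and the BAFF mean from 1.11 to 69.2, with a median of 8.01. Hist1h1c was highest in both groups at 82.8 and 69.2 CPM per coding kilobase, and Hist1h4d followed in controls at 72.2. Hist1h2bb, at 51.3 in controls and 13.8 with BAFF, was among the 5 highest controls by this measure. How reads beyond the coding part were counted is not known, and any such reads raise this measure. The longest annotated transcripts were 1560 bases for Hist1h1c, 1138 for Hist1h4d and 508 for Hist1h2bb. The order of genes is thus tied to this choice of length. The make-up of the pool differed as well. H2b gave 28.3% to 34.5% of all member CPM in controls and 22.3% to 25.2% with BAFF, without overlap, and H3 8.80% to 10.8% and 6.42% to 8.40%. H2a went the other way without overlap, at 10.8% to 11.9% in controls and 12.7% to 15.7% with BAFF. H1 gave 25.2% to 32.3% in controls and 32.2% to 41.1% with BAFF, and these overlapped.

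Genes were then set beside their annotated 3′ ends, a property that was looked at after values had been seen. Of 20 tested genes whose model ends within 100 bases of the stem-loop 13 fell, and of 19 whose model runs on 6 fell, with medians of -1.13 and -0.76. Of 14 tested genes with no stem-loop in the model 10 fell (median -1.17). After RLE the counts were 16 of 20, 14 of 19 and 12 of 14. Expressed as summed CPM, the short models stood at 55.6 ± 3.3 and 145 ± 24.7 CPM in BAFF and control libraries, and the long models at 165 ± 31.3 and 268 ± 40.8 CPM. The difference between these classes was not tested, and the classes differ in level and in histone type. Of the 5 members listed as having known polyadenylated transcripts, only Hist1h2bc fell (14.3 ± 2.9 to 5.41 ± 0.51 CPM). The other 4, Hist1h1c, Hist2h2be, Hist3h2a and Hist4h4, overlapped between groups, and Hist3h2a alone of them passed after RLE. Hist1h3d, with 752 annotated bases past its stem-loop, and Hist2h2ac, with 57 bases, differ from the medians of their classes: the first fell (5.91 ± 0.71 to 1.63 ± 0.57 CPM) and the second did not pass (4.44 ± 0.90 and 3.96 ± 0.76 CPM).

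**Figure D4:**
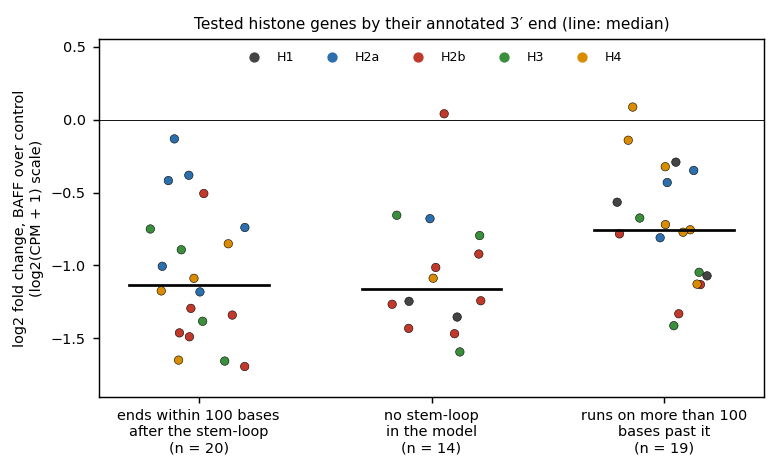
Log2 fold change (BAFF over control, log2(CPM + 1) scale) of tested genes grouped by annotated 3′ end and coloured by histone type, with lines at the medians (-1.13, -1.17 and -0.76 from left to right). The classes overlap: all 3 hold genes that passed (13, 10 and 6) and genes that did not (7, 4 and 13).

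Position gave 2 further descriptions. The Hist1 members lie in 2 blocks of chromosome 13, with 24 and 28 genes. In the first 12 of 18 tested genes fell and in the other 15 of 26, with medians of -1.05 and -1.06 (15 of 18 and 23 of 26 after RLE). Of the 7 tested Hist2 genes, Hist2h3b and Hist2h2bb fell, and Hist2h4 was lower after RLE only. An H2a and an H2b gene stand head to head within 500 bases in 13 places. The H2b gene had the higher control mean in 11 of these 13 pairs and fell in 10, while the H2a gene fell in 1. After RLE these counts were 10 and 5. In the 6 pairs with both genes tested, the H2b gene was lower in 5 on either scale, and the H2a gene in 1 on the deposited scale and 4 after RLE. The difference between the genes of a pair was not tested, and the pseudocount of 1 CPM shrinks the log2 fold change more for the scarcer gene. In the pair Hist1h2ak and Hist1h2bn the first stood at 0.695 ± 0.22 and 1.70 ± 0.21 CPM and the second at 1.98 ± 0.14 and 7.27 ± 0.76 CPM, and the groups overlapped for neither gene. In the Hist2h2ac and Hist2h2be pair neither gene passed.

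Sequence likeness limits the values of single genes. For 25 of the 65 genes, under 50% of the 101-base windows of their transcripts (the read length in the labels) were found in no other member. The share was 0% for Hist2h2aa2 and 8.52% for Hist1h2br, but 100% for Hist2h2be, Hist2h2bb, Hist2h4, Hist4h4, Hist1h1a and Hist1h1b. Among the 40 genes with a larger unique share, 18 of 37 tested genes fell (median -0.85), and among the 25, 11 of 16 did (-1.05). After RLE 29 of the 37 and 13 of the 16 were lower, so the shares were close on that scale. In these libraries 10 to 14 of the 65 values lay within 0.02 of a whole number of reads, and the low values of all genes did so in 84.7% to 86.3% of cases.

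Genes that act with these histones did not move as 1 block. Of 32 S phase and DNA replication genes, all tested, 8 fell, 0 rose and 24 did not pass, and their median was -0.78 on the log2 scale (23 lower after RLE, median -0.95). Pole, the catalytic subunit of a replicative polymerase, stood at 2.59, 1.96 and 2.17 CPM with BAFF and 12.6, 7.02 and 5.72 CPM in controls (log2 -1.48 ± 0.31; limma adjusted p = 0.00021). Tk1, thymidine kinase (log2 -1.30), Uhrf1, which reads newly replicated methylated DNA (-1.31), and the replication initiation gene Mcm10 (-1.04) also fell without overlap. Pcna, the polymerase clamp, named after its values were seen, stood at 58.0, 79.2 and 64.4 CPM against 92.8, 68.4 and 43.3 CPM and did not pass (log2 0.04). Of 16 mitosis genes 13 fell and 0 rose (median -1.33; 16 after RLE), with Cenpf, Aurkb, Cenpe and Ccna2 having the smallest p. Per library, the ratio of summed histone CPM to summed CPM of the S phase list was 0.928, 0.839 and 0.721 with BAFF and 0.930, 1.07 and 1.34 in controls. Against the mitosis list it was 2.27, 2.25 and 1.84 with BAFF and 1.32, 1.54 and 1.94 in controls, where the groups overlapped.

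No gene of the machinery that makes and trims histone messages was called lower. Of 13 tested genes, 0 passed in either direction on the deposited scale in limma. At an unadjusted p under 0.05, 0 were lower and 1 higher, against 2053 of all 12824 tested genes in both directions together. After RLE 0 were called lower and 1 higher. That gene was Slbp, which encodes the stem-loop binding protein: it stood at 42.4, 44.7 and 39.7 CPM with BAFF and 39.2, 26.5 and 17.4 CPM in controls (log2 0.66, adjusted p = 0.267; 0.42, adjusted p = 0.0188 after RLE). It passed in 3 of the 6 RLE fits that left out 1 library, and not without BAFF tumour 1, BAFF tumour 2 or control tumour 3. The stem-loop exonuclease gene Eri1 (log2 0.56), the small nuclear ribonucleoprotein gene Snrpb (0.40) and the RNA cap factor gene Srrt (0.37) did not pass. Of 17 histone chaperone and acetylation genes, 1 fell and 0 rose, and after RLE 5 were lower and 0 higher. The gene called on both scales was Chaf1a, a subunit of the complex that places H3 and H4 on newly copied DNA (4.87, 3.335 and 3.85 CPM with BAFF against 15.95, 11.7 and 6.35 CPM in controls; log2 -1.23, limma adjusted p = 0.00389). Asf1b, which hands H3 and H4 to that complex, passed only after RLE (-0.65; -0.84 after RLE). So did Rbbp7, Atrx and Hjurp, named after their values were seen (-0.46, -0.38 and -0.32 after RLE); of these only Rbbp7 passed in all 6 RLE fits that left out 1 library, Atrx in 2 and Hjurp in 0. Ubn1 (0.43) and Daxx (0.40), which serve replication-independent deposition, did not pass.

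No replication-independent variant was called lower. Of 9 tested, 0 passed in limma on the deposited scale, the median log2 fold change was 0.38, and 2 were higher after RLE. At an unadjusted p under 0.05, 1 was higher and 0 lower, against 2053 of all 12824 tested genes in both directions together. H3f3a, which encodes the replacement H3, stood at 306, 348 and 279 CPM with BAFF and 257, 169 and 140 CPM in controls, without overlap (log2 0.76 ± 0.32, limma adjusted p = 0.181; 0.50, adjusted p = 0.004785 after RLE). H2afz, the H2A variant of active promoters, stood just inside the threshold after RLE (0.55; 0.30, adjusted p = 0.0492 after RLE). It passed in 0 of the 6 RLE fits that left out 1 library, and H3f3a in all 6. H3f3b, at 694 ± 86.0 and 463 ± 114 CPM, and H2afy, at 121 and 89.9 CPM, did not pass on either scale.

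**Figure D5:**
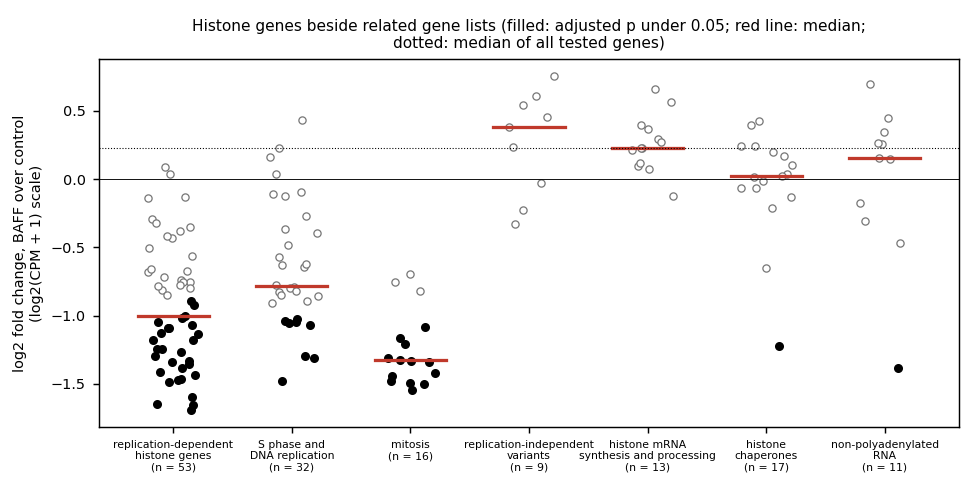
Log2 fold change (BAFF over control, log2(CPM + 1) scale) of tested genes in 7 lists. Filled points passed at an adjusted p under 0.05, red lines are list medians and the dotted line is the median of all tested genes (0.23); the histone, S phase and mitosis medians (-1.01, -0.78 and -1.33) lie below it and that of the replication-independent variants (0.38) above it.

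Some cell type markers also differed between the groups, in both directions. Over all tested genes 3.5% were called lower and 1.81% higher, and 9.91% and 7.18% after RLE. Melanoma markers summed to 177, 162 and 85.9 CPM with BAFF and to 742, 447 and 429 CPM in controls, with 8 of 9 tested markers lower and none at 0 in any library. Dct, the most abundant, stood at 59.5, 52.8 and 31.1 CPM against 264, 174 and 167 CPM. Melanoma cells divide, and their part in the histone result was not tested. Of the monocyte markers 2 of 10 rose and 0 fell (4 higher after RLE), with summed CPM of 10671 to 12116 with BAFF and 5884 to 11031 in controls, and Lyz2 was the most abundant. Neutrophil markers, led by Csf3r, summed to 173 to 258 CPM with BAFF and 70.4 to 165 CPM in controls, 5 of 7 rose (3 after RLE) and none was at 0. The T and NK cell list, led by Gzmb, summed to 18.9 to 28.3 CPM with BAFF and 11.6 to 32.6 CPM in controls, and 0 of 7 tested members passed. The B and plasma cell list, led by Ighm, summed to 26.4 to 39.8 and 27.5 to 70.3 CPM, and 1 of 3 tested members, Jchain, fell. Fibroblast and endothelial markers, led by Col3a1, summed to 66.3 to 97.8 and 46.1 to 270 CPM, and 0 of 8 passed (1 lower and 2 higher after RLE). Red cell and platelet markers, led by Pf4, summed to 68.0 to 140 and 101 to 238 CPM, and 0 of 6 tested passed. The part of these cells in the histone result was not tested.

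Because histone messages normally lack a poly(A) tail, 11 tested genes of RNAs that also lack one were set beside them. On the deposited scale 1 fell and 0 rose, and after RLE 0 passed, with medians of 0.16 and -0.02. The gene that fell was the ribosomal RNA gene CT010467.1 (log2 -1.38, limma adjusted p = 0.0017; 0.538 after RLE), whose groups overlapped. Scarna13, Snora73b and Scarna2 did not pass (log2 0.70, -0.47 and 0.45). Of the most abundant of these RNAs, named after their values were seen, Rn7sk stood at 7033, 7199 and 5533 CPM with BAFF and 5356, 5419 and 4712 CPM in controls (log2 0.34), and Rpph1 at 627, 615 and 448 CPM against 692, 763 and 620 CPM (-0.31).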

How the data were processed

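The series holds 6 RNA-seq libraries, made with a TruSeq RNA v2 kit and read for 101 cycles per the labels' protocols. The authors deposited 1 table of CPM per gene, identified by its values. Partek, STAR 2.4.1d and Bowtie2 2.2.5 are named, without roles, in the submitters' processing notes; the sources used here give no genome build, annotation, counting rule or filter. The misspelt column for control 2 was matched by its remaining letters and number. Reads could not be recovered gene by gene, so no count model was used. Libraries of a group differed by more than sampling noise (smallest chi-square per degree of freedom 8.12).

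The deposited CPM were tested with limma-trend (limma 3.58.1, R 4.3.3) on log2(CPM + 1), unscaled, for 12824 genes with a mean of at least 1 CPM, two-sided, with Benjamini-Hochberg adjustment over all of them at 0.05. The prior degrees of freedom were infinite on this scale, so SE reflect the spread pooled over genes of 1 level. Errors of CPM are SD and of fold changes SE. The method was also run on simulated data with no difference in scale between libraries. That run therefore does not bear on how scale affects the calls. Gene models come from GENCODE M21 and promoters from RefSeq. The naming rule took every member that passed, the 3 most abundant of each type, the members of Hist2 to Hist4 at 1 CPM or more, the listed polyadenylated members, and the 4 genes of smallest p of each related list; other members named, such as Hist1h2ak, Hist1h3h, Hist1h4a, Hist1h4i and Hist1h4m, were chosen after their values were seen. Members and lists were chosen with earlier results of these data known.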

Additional observations from a re-analysis of the deposited data

How the results depend on the processing

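The count of members lower with BAFF, 29 on the deposited scale, was 42 after RLE, trimmed-mean or upper-quartile factors, 27 with a pseudocount of 0.1 or with robust moderation and no trend, and 30 with no filter. It was 17 at a mean of 5 CPM or more, where 25 members were tested. Over all tested genes, 449 were lower on the deposited scale, and 1271, 1282 and 1394 after RLE, trimmed-mean and upper-quartile factors. The pseudocount of 0.1 gave 429, robust moderation without trend 433, no filter 623 of 18341, and the 5 CPM filter 174 of 9096. The replicate block gave 438, and 1159 with RLE. Leaving out 1 library gave 9 to 39 members, and 34 to 42 after RLE, where 131 to 922 of all tested genes were lower, and 833 to 1172 after RLE. Of the 29, 8 passed in all 6 such fits, and 33 of the 42 after RLE. No member was called higher under any of these settings. The median log2 fold change of tested members, -1.01, was -1.17 after RLE (with or without the replicate block), -1.17 with trimmed-mean and -1.19 with upper-quartile factors, -1.30 with a pseudocount of 0.1, -0.78 with no filter and -1.17 at a mean of 5 CPM or more. Without 1 library it ran from -1.14 to -0.90, and from -1.32 to -1.06 after RLE. The replicate block left 29 members lower, and 42 with RLE, and changed no call of a named gene on the deposited scale, while Scarna13 passed with RLE and the block. Same-numbered libraries did not deviate together from their group means (correlations of -0.06, 0.06 and -0.04). With 3 libraries per group this cannot exclude that the numbers pair them. Of the named genes, Hist2h2be and Hist4h4 changed sign, uncalled throughout: -0.13 and -0.12 after RLE (with or without the replicate block), -0.14 and -0.12 with trimmed-mean factors, and -0.17 and -0.16 with upper-quartile factors. Leaving out 1 library moved Hist2h2be between -0.21 and 0.30 and Hist4h4 between -0.13 and 0.25. After RLE as well, Hist2h2be stood at -0.28, -0.094 and -0.020 without BAFF tumours 1 to 3 and -0.058, -0.13 and -0.23 without control tumours 1 to 3, and Hist4h4 at -0.036, -0.30, -0.0079, -0.15, -0.056 and -0.16 in that order. Scarna2 stood at -0.024 after RLE without control tumour 1. The cause of these changes was not tested. A count test on recovered reads was not run, because whole reads were not recovered. At 4.72 to 27.6 reads per CPM, 12 members were too scarce to test.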
